A study of Arabidopsis thaliana with 12 samples.

Results

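Among the probes of a gene array that carry exactly 1 annotated gene, 19 genes had a higher signal in Arabidopsis thaliana plants recovered from light stress than in control plants, in each of 6 pairs of samples with the same replicate number. The array held 3439 probes, of which 692 were annotated with 1 gene, and 631 of these were bright enough to be used. A gene was taken where the recovered sample lay above the control of its number by more than 0.25 on the log2 scale in all 6 pairs, and where 6 or more deposited values lay above a floor of 0.0322 intensity units. That held for 24 named probes, or 3.8% of the 631, and for 131 of all 3177 tested probes, or 4.12%. Of the 24, 5 were set aside by name (the NADP-dependent malate dehydrogenase gene, CCL, AT5G52810 and a pair of pentatricopeptide repeat genes), which left the 19. The remaining 107 probes that met the pair condition had several genes or none and are not described. The genes were thus chosen by the differences given below, so these are a description with no test, and the shares above say nothing further about the genes.

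The 6 recovered samples came from plants that were moved to 1000 µE for 1 h and then returned for 48 h to 80 µE. The 6 controls came from plants kept in 80 µE. All plants were wild type of the ecotype Columbia 0, and their organ and age are not stated in the labels. The control titles carry the time 0 h and none names a control harvested 48 h later, so the light treatment and the time of harvest cannot be told apart. No label states that samples of a group were separate plants or cultures, so any spread between them may be technical. In a bulk sample, fewer cells of a type and less RNA per cell cannot be told apart.

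The deposited intensities summed to between 2874 and 3406 per sample. Within a group, neighbouring numbers (1 with 2, 3 with 4, 5 with 6) resembled one another most. Across the tested probes, which are not independent of each other, Pearson's r was 0.854 to 0.939 for such neighbours and 0.650 to 0.794 for any other combination. If adjacent numbers are repeat readings of the same RNA, the 6 pairs hold 3 comparisons. Of 19 marker genes fixed for leaf, root, seed, guard cell and flower, 1 had a probe of its own, the leaf antenna gene LHB1B2 (AT2G34420). Its log2 intensity was 4.19 ± 0.20 in recovered and 3.95 ± 0.23 in control samples (SD, n = 6 each). The tissue could therefore not be checked against markers of other cell types.

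Plants in light beyond what photosynthesis can use form reactive oxygen species, and their chloroplasts and nuclei answer with changes in transcription that protect and rebuild the photosynthetic apparatus. After return to moderate light much of this early response fades, while slower acclimation, with changed protein turnover and metabolism, can persist. The 19 genes come from no single pathway. They include genes for chromatin and RNA factors, ubiquitin ligase components, protein kinases, enzymes, a lipid-transfer protein and cytoskeletal proteins. The roles given here are background on each locus or family and were not taken from the array's annotation, which gives only the locus, or the symbol for chr31.

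Over the 19 genes, the mean of the 6 pair differences ran from 0.71 for AT1G49850 to 2.23 for AT4G31930 on the log2 scale, or 1.63-fold to 4.70-fold, with a median of 1.26. The top value includes a pair of controls set at the floor: with pairs that hold a floor value left out, a setting chosen after seeing the data, AT4G31930 was at 0.88 and the range was 0.60 for AT2G36920 to 1.81 for AT5G46560, with a median of 1.15. The median over all 3177 tested probes was 0.0040. Quantile normalisation gives all arrays the same distribution and so holds that value near 0, and with the deposited scaling kept it was 0.47. In 6 of the 19 genes, namely AT5G46560, AT1G35510, AT4G39760, AT1G67800, chr31 and AT1G12100, every recovered sample lay above every control sample, against 1.83% of all tested probes. A share above that was built in, since the genes were chosen to be higher in every pair of the same samples. In the other 13 the groups overlapped, and the gene was taken only because each recovered sample lay above the control of its own number. The mean difference was larger than the SD of both groups in 13 of the 19 genes and larger than the SD over the pairs in 18. The exception was AT2G36920, with a mean of 0.99 and an SD of 1.02, and without pairs that hold a floor value these counts were 13 and 19. Nothing is read from these counts, since the same differences chose the genes and no share over all tested probes was computed. After quantile normalisation, all 19 values of each recovered sample lay above the floor, while 13 of the 228 values, all in controls, lay at it (log2 of -4.95). Of these 13, 12 had been deposited as 0. The value of AT2G32640 in recovered 4 had been deposited below the floor too, at 0.0206.

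**Figure D1:**
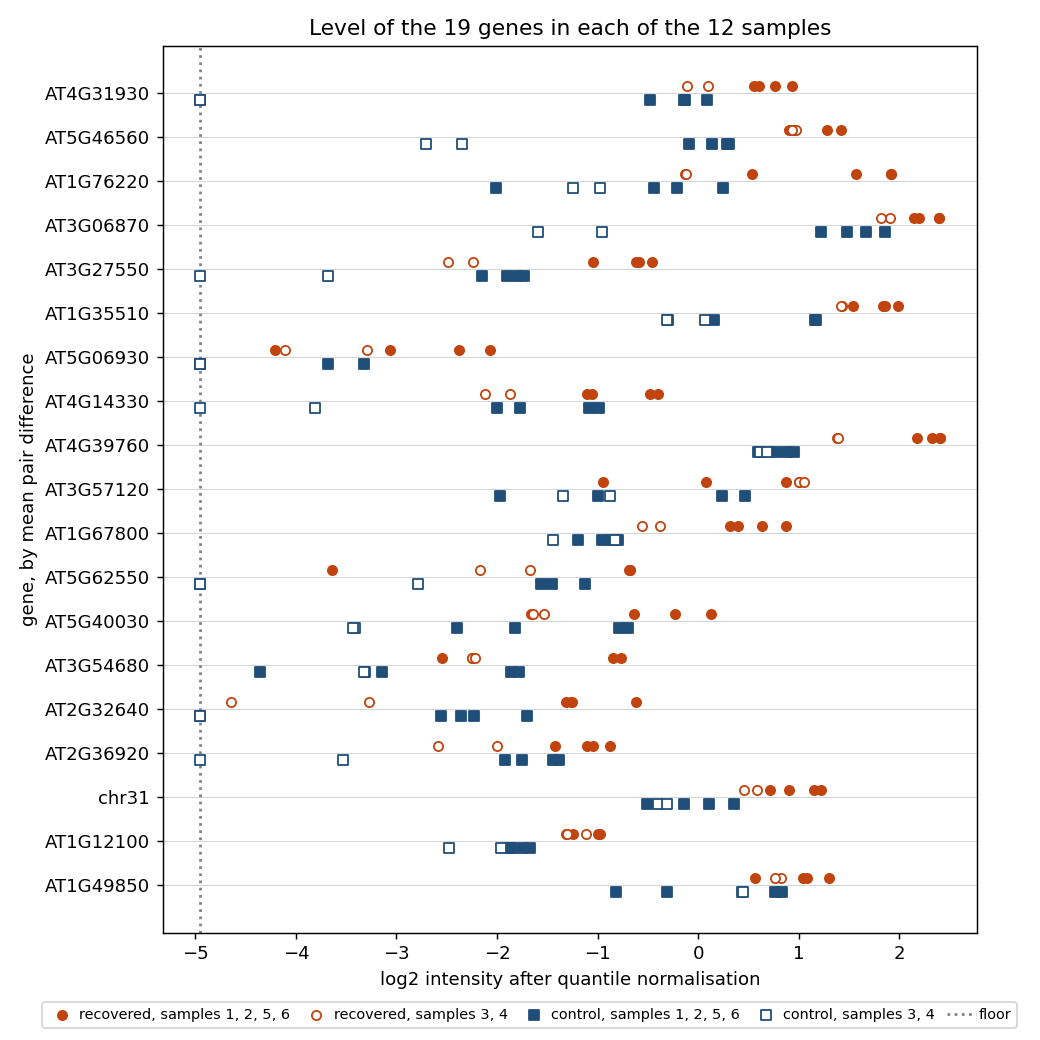
Log2 intensity after quantile normalisation (x axis) of the 19 genes (y axis, ordered by mean pair difference) in each sample; circles are the 6 recovered and squares the 6 control samples, and open symbols are samples 3 and 4. Control values of 7 genes lie on the dotted floor, where points overlap (4 for AT5G06930), and 6 genes have all circles to the right of all squares.

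A pair of genes encode nuclear or organellar nucleic acid factors. The gene chr31 (AT1G05490) encodes a chromatin remodelling protein of the CLASSY family, which acts in RNA-directed DNA methylation. The lowest, median and highest values of chr31 were 0.46, 0.81 and 1.22 log2 units in recovered samples, against -0.50, -0.23 and 0.36 in controls. Its groups were separate by a narrow gap, 0.10 between recovered 4 and control 2, and it had the most even pair differences of 0.77 to 1.41, with a mean of 0.99 ± 0.23 (SD, n = 6 pairs), or 1.98-fold. The family of AT3G27550 carries the CRM domain, an RNA-binding fold known from organellar intron splicing. In recovered samples 1 to 6, AT3G27550 had log2 intensities of -0.59, -0.46, -2.49, -2.24, -1.05 and -0.61, against -2.15, -1.90, -4.95, -3.68, -1.73 and -1.80 in controls 1 to 6. The groups overlapped, with recovered 3 and 4 below the controls other than 3 and 4, and control 3 was at the floor. AT3G27550 had pair differences of 0.68 to 2.47, with a mean of 1.46 ± 0.58 (SD, n = 6 pairs), or 2.76-fold, and the mean over the 5 pairs without a floor value was 1.26. Of 12 genes of the RNA-directed DNA methylation pathway listed for this work, chr31 alone had a probe of its own.

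Another 3 genes belong to families of ubiquitin ligases, which mark proteins for degradation or other fates. AT4G39760 encodes an F-box protein with kelch repeats, the kind of subunit that selects substrates for SCF ligases. AT4G39760 had log2 intensities of 2.41, 2.17, 1.38, 1.39, 2.33 and 2.41 in recovered samples 1 to 6, against 0.89, 0.60, 0.62, 0.68, 0.96 and 0.77 in controls 1 to 6. The means were 2.01 ± 0.50 in recovered and 0.75 ± 0.15 in control samples (SD, n = 6 each), and the controls were the tightest of all 19 genes. The recovered samples fell into 4 bright ones and the dimmer samples 3 and 4, all above the controls. AT4G39760 had pair differences of 0.70 to 1.64, with a mean of 1.26 ± 0.42 (SD, n = 6 pairs), or 2.40-fold.

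AT1G67800 encodes a copine-domain protein of the RGLG ligases. The log2 intensity of AT1G67800 was 0.64, 0.88, -0.55, -0.38, 0.40 and 0.31 in recovered samples 1 to 6, against -0.79, -0.96, -1.45, -0.83, -0.87 and -1.19 in controls 1 to 6. Here too recovered 3 and 4 were the lowest of their group, and the highest control lay 0.24 below the lowest recovered sample. AT1G67800 had pair differences of 0.45 to 1.83, with a mean of 1.23 ± 0.49 (SD, n = 6 pairs), or 2.34-fold. Of the 5 RGLG genes, it was the one with a probe of its own. AT1G49850 encodes a RING-finger protein and had the smallest mean difference of the 19. The lowest, median and highest values of AT1G49850 were 0.57, 0.94 and 1.31 log2 units in recovered samples, against -0.82, 0.44 and 0.83 in controls. The groups overlapped, with controls 5 and 6 far below the other controls. Its differences were 1.37 on average in pairs 5 and 6, 0.40 in pairs 1 and 2 and 0.35 in pairs 3 and 4.

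AT3G57120 and AT5G40030 encode protein kinases, the second of the AGC family. In recovered samples 1 to 6, AT3G57120 had log2 intensities of -0.95, 0.078, 1.01, 1.06, 0.87 and 1.00, against -1.97, -0.99, -1.34, -0.88, 0.24 and 0.47 in controls 1 to 6. The groups overlapped, with recovered 1 and 2 below controls 5 and 6, and samples 1 were the lowest of both groups. AT3G57120 had pair differences of 0.53 to 2.35, with a mean of 1.26 ± 0.73 (SD, n = 6 pairs), or 2.39-fold. The lowest, median and highest values of AT5G40030 were -1.67, -1.09 and 0.13 log2 units in recovered samples, against -3.43, -2.11 and -0.70 in controls. The groups of AT5G40030 overlapped, and it had pair differences of 0.56 to 1.90, with a mean of 1.16 ± 0.56 (SD, n = 6 pairs), or 2.24-fold.

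Among genes for enzymes and metabolic proteins, AT1G35510 encodes a protein of the O-fucosyltransferase family, enzymes that attach fucose to other molecules. AT1G35510 had log2 intensities of 1.85, 1.99, 1.43, 1.42, 1.54 and 1.84 in recovered samples 1 to 6, against 1.17, 1.17, -0.31, 0.068, -0.30 and 0.16 in controls 1 to 6. Controls 1 and 2 stood clear above the other controls, and all recovered samples lay above them. AT1G35510 had pair differences of 0.68 to 1.84, with a mean of 1.35 ± 0.49 (SD, n = 6 pairs), or 2.56-fold. AT2G32640 encodes a protein related to the lycopene cyclases, which close the rings of carotenoids. The log2 intensity of AT2G32640 was -1.25, -1.31, -3.27, -4.64, -0.62 and -1.26 in recovered samples 1 to 6, against -2.55, -2.23, -4.95, -4.95, -2.36 and -1.70 in controls 1 to 6. Samples 3 and 4 were the lowest of both groups, with both controls at the floor, so the pair differences there have no measured size. AT2G32640 had pair differences of 0.31 to 1.74, with a mean of 1.07 ± 0.61 (SD, n = 6 pairs), or 2.09-fold. The 4 pairs without a floor value, 1, 2, 5 and 6, differed by 1.30, 0.91, 1.74 and 0.44.

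AT4G31930 encodes a mitochondrial glycoprotein-family protein. In recovered samples 1 to 6, AT4G31930 had log2 intensities of 0.60, 0.55, 0.094, -0.11, 0.93 and 0.76, against -0.13, 0.084, -4.95, -4.95, -0.14 and -0.47 in controls 1 to 6. The mean difference of AT4G31930, at 2.23, was the largest of the 19. Controls 3 and 4 had been deposited as 0 and set to the floor, and over the 4 other pairs the mean was 0.88. AT1G12100 belongs to the lipid-transfer and seed storage protein superfamily of small secreted proteins. AT1G12100 had log2 intensities of -0.97, -1.24, -1.31, -1.11, -1.31 and -0.99 in recovered samples 1 to 6, against -1.86, -1.76, -2.48, -1.96, -1.88 and -1.67 in controls 1 to 6. Recovered samples were the tightest of all 19 genes, and control 3 was the lowest of its group. AT1G12100 had pair differences of 0.52 to 1.17, with a mean of 0.78 ± 0.24 (SD, n = 6 pairs), or 1.71-fold.

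The cytoskeletal pair were AT4G14330, which encodes a kinesin motor associated with the phragmoplast, and AT5G62550, annotated in the family of microtubule-associated proteins. The log2 intensity of AT4G14330 was -0.40, -0.48, -2.12, -1.87, -1.11 and -1.05 in recovered samples 1 to 6, against -1.09, -0.99, -3.81, -4.95, -1.998 and -1.77 in controls 1 to 6. Samples 3 and 4 were the lowest of both groups, and control 4 was at the floor. AT4G14330 had pair differences of 0.51 to 3.09, with a mean of 1.27 ± 0.98 (SD, n = 6 pairs), or 2.40-fold, and 0.90 on average over the 5 pairs without a floor value. In recovered samples 1 to 6, AT5G62550 had log2 intensities of -0.67, -0.69, -2.17, -1.67, -3.64 and -0.68, against -1.13, -1.56, -2.78, -4.95, -4.95 and -1.45 in controls 1 to 6. AT5G62550 had the largest gap between adjacent numbers of the 19 genes, 3.50 between controls 5 and 6, but control 5 was at the floor, so that gap has no measured size. Its largest gap between values above the floor was 2.96, between recovered 5 and 6, and its mean difference was 1.22. Without the pairs with a control at the floor, 4 and 5, the mean was 0.68 over 4 pairs.

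The other 6 genes are given without a role. AT5G46560 had log2 intensities of 1.28, 0.90, 0.97, 0.93, 0.96 and 1.42 in recovered samples 1 to 6, against 0.30, -0.088, -2.35, -2.70, 0.13 and 0.29 in controls 1 to 6. The groups of AT5G46560 were separate, and controls 3 and 4 were much dimmer than the remaining controls while the recovered samples were close together. AT5G46560 had pair differences of 0.83 to 3.63, with a mean of 1.81 ± 1.30 (SD, n = 6 pairs), or 3.52-fold. The log2 intensity of AT3G06870 was 2.40, 2.40, 1.91, 1.82, 2.20 and 2.15 in recovered samples 1 to 6, against 1.85, 1.67, -1.59, -0.95, 1.48 and 1.22 in controls 1 to 6. AT3G06870 had the same layout, but the lowest recovered sample (4) lay just below the highest control (1), so its groups overlapped. AT3G06870 had pair differences of 0.55 to 3.50, with a mean of 1.53 ± 1.27 (SD, n = 6 pairs), or 2.89-fold.

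In recovered samples 1 to 6, AT1G76220 had log2 intensities of 1.92, 1.92, -0.13, -0.12, 0.54 and 1.57, against 0.25, -0.21, -0.98, -1.25, -2.01 and -0.44 in controls 1 to 6. In AT1G76220 recovered 3 and 4 reached into the control range. AT1G76220 had pair differences of 0.85 to 2.55, with a mean of 1.72 ± 0.64 (SD, n = 6 pairs), or 3.30-fold. AT5G06930 had log2 intensities of -2.38, -2.06, -3.30, -4.11, -4.21 and -3.06 in recovered samples 1 to 6, against -3.68, -4.95, -4.95, -4.95, -4.95 and -3.33 in controls 1 to 6. AT5G06930 was the dimmest of the 19, with 4 controls at the floor, and its mean difference of 1.29 became 0.78 over the 2 pairs with measured controls. The log2 intensity of AT2G36920 was -1.05, -1.11, -2.002, -2.59, -1.43 and -0.88 in recovered samples 1 to 6, against -1.44, -1.38, -4.95, -3.53, -1.76 and -1.92 in controls 1 to 6. In AT2G36920 samples 3 and 4 were lowest in both groups, and without pair 3, whose control was at the floor, its mean difference was 0.60 over 5 pairs. The lowest, median and highest values of AT3G54680 were -2.55, -2.23 and -0.76 log2 units in recovered samples, against -4.36, -3.23 and -1.78 in controls. The groups of AT3G54680 overlapped, with samples 5 and 6 the brightest of both groups, and it had pair differences of 0.90 to 1.81, with a mean of 1.15 ± 0.33 (SD, n = 6 pairs), or 2.22-fold.

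Near the threshold of 0.25, the genes just inside were AT5G06930, with its lowest pair difference at 0.26 in pair 6, AT2G36920 at 0.27 in pair 2, and AT2G32640 at 0.31 in pair 4. The control of that last pair was at the floor, and the lowest difference of AT2G32640 without a floor value was 0.44 in pair 6. Just outside were AT3G09250 at 0.23, AT5G13260 at 0.22 and AT3G25410 at 0.20, with mean differences of 0.80, 0.65 and 0.97.

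The adjacent numbers with the largest mean difference varied between genes. They were pairs 3 and 4 for 10 genes, pairs 1 and 2 for 5 and pairs 5 and 6 for 4, where all tested probes were divided 38.9%, 28.5% and 32.6%. The largest was taken with its sign, so for a probe lower after recovery it is the least lowered. The division was not tested, and nothing about the genes is read from it. The 10 were AT4G31930, AT5G46560, AT3G06870, AT3G27550, AT4G14330, AT3G57120, AT5G62550, AT5G40030, AT2G36920 and AT1G12100, and 5 of them had control 3 or 4 at the floor. The division changed with the scaling: pairs 3 and 4 had the largest mean for 6 genes with the deposited scaling kept (21.1% of all tested probes), where pairs 5 and 6 had it for 10 (55.8%), for 13 with array medians aligned (43.2%) and for 12 with cyclic loess (40.8%). With quantile normalisation, the mean of AT5G46560 was 3.48 in pairs 3 and 4, 0.98 in pairs 1 and 2 and 0.98 in pairs 5 and 6, and in AT3G06870 these were 3.14, 0.64 and 0.82. The opposite was seen in AT1G76220, with 0.99 in pairs 3 and 4 and 2.09 over the other 4, in AT1G67800, with 0.67 and 1.51, and in AT4G39760, with 0.73 and 1.53. In chr31, AT3G54680 and AT2G32640 the mean over pairs 3 and 4 minus that over the rest was -0.16, -0.10 and -0.10. In AT2G32640 controls 3 and 4 were both at the floor, so its value has no measured size.

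**Figure D2:**
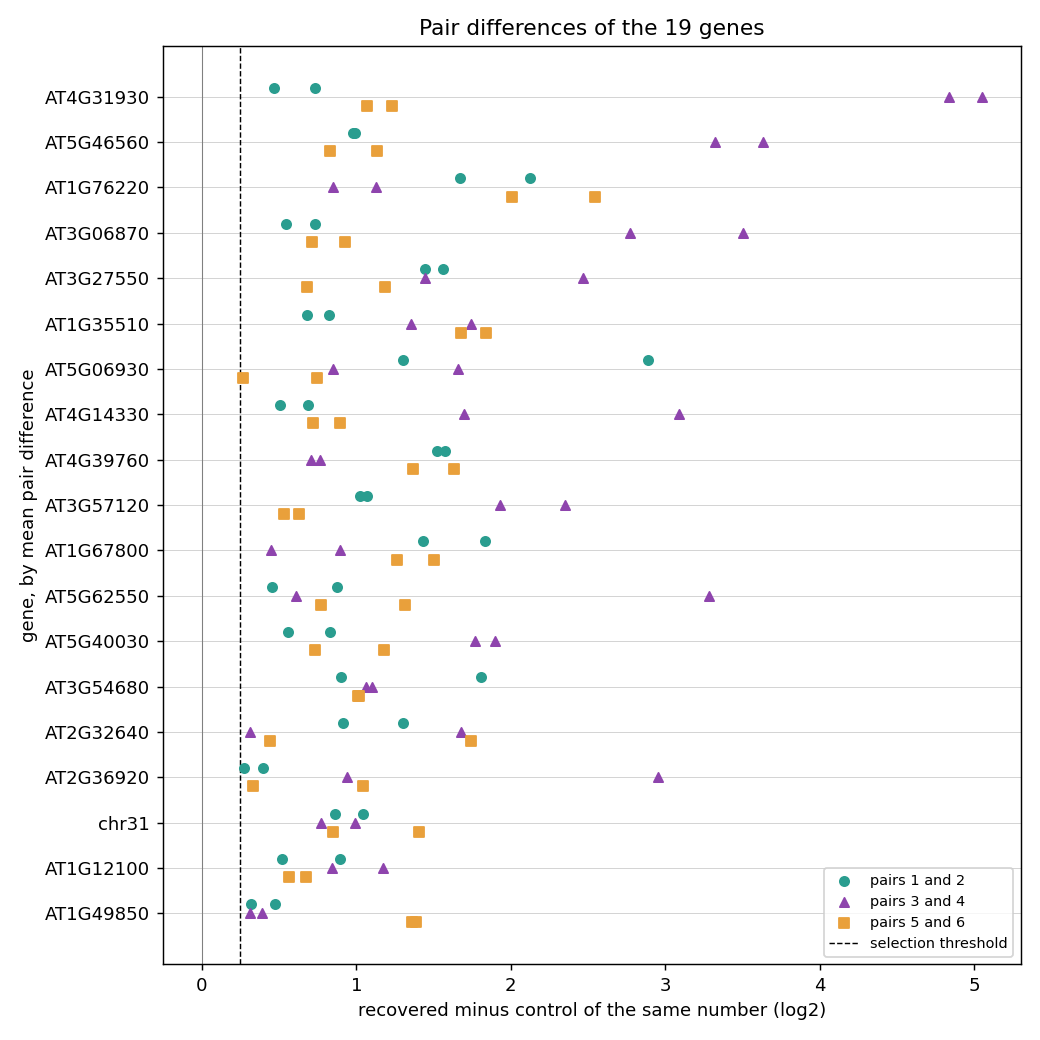
Recovered minus control of the same replicate number on the log2 scale (x axis) for the 19 genes (y axis), 6 points per gene, with shape and colour for adjacent numbers. All points lie right of the dashed threshold of 0.25 by the choice of genes; the triangles of pairs 3 and 4 stand far right of the others in AT4G31930, AT5G46560 and AT3G06870 and are the leftmost in AT1G76220, AT4G39760 and AT1G67800.

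The levels shared a pattern too. Samples 3 and 4 averaged below the rest of their group in 18 of the 19 genes among recovered samples (50.1% of all tested probes), and in 18 of 19 among controls (46.6%). The exceptions were AT3G57120 in recovered samples and AT1G49850 in controls, so 17 genes were lower in samples 3 and 4 of both groups, against 25.7% of all tested probes. Of the 13 control values at the floor, 10 were in controls 3 and 4. The count of 17 was 16 with the deposited scaling kept (all tested probes 38.7%), 15 with cyclic loess (25.1%) and 10 with array medians aligned (19.9%). What samples 3 and 4 share is not named in the labels, and its part in the differences was not tested.

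The gap between adjacent numbers may hold technical spread alone, since the labels do not say whether such samples are separate plants. For each gene, the 6 absolute gaps between adjacent numbers of a group had a median whose own median over the 19 genes was 0.23 log2, against 0.34 for all named probes tested. Without gaps to a value at the floor these were 0.22 and 0.33. The selection asked for a higher value in every pair, which favours genes with small gaps. Nothing is therefore read from the lower values of the 19 genes. The largest gap between values above the floor exceeded the gene's mean difference in 3 genes, namely AT5G62550, AT3G54680 and AT2G32640, and in 5 genes, AT5G06930 and AT2G36920 added, where gaps to the floor were counted. Against the mean over pairs without a floor value it was 4 genes, with AT5G06930 added to the 3. The largest gap between values above the floor ran from 0.25 in AT4G14330 to 2.96 in AT5G62550. By mean level over the 12 samples, the genes lay between percentile 5.07 (AT5G06930) and percentile 97.6 (AT4G39760) of the named probes tested, with a median of 81.3.

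The number of genes that met the condition changed with the scaling between arrays. The arrays of recovered 1, 2, 5 and 6 had been deposited with higher medians than the rest, at log2 values of -1.23 to -1.13, against -2.35 and -2.34 in recovered 4 and 3 and -2.32 to -1.82 in controls. With the deposited scaling kept, the median of all tested probes was 0.47 higher in recovered samples, and 16 of the 19 genes kept more than 0.25 in all 6 pairs, where 11.6% of all tested probes did. With array medians aligned, 7 did (2.39% of tested probes), and 10 of the 114 pair values lay below 0. With cyclic loess 13 did (3.78% of tested probes). The genes were chosen on the same samples, so a share above that of all tested probes was built in. The genes that met the condition with all 4 scalings were AT1G12100, AT1G67800, AT1G76220, AT3G27550, AT3G54680 and AT4G39760.

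The mean difference of each of the 19 genes was above 0 with all 4 scalings. With array medians aligned it ran from 0.27 for AT1G49850 to 1.91 for AT4G31930. It was 0.57 there for chr31 and 0.76 for AT4G39760, against 0.99 and 1.26 with quantile normalisation. With medians aligned, the genes that passed 0.25 numbered 10, 11, 19, 18, 15 and 17 in pairs 1 to 6. Every recovered sample lay above every control in 3 genes with array medians aligned (0.755% of tested probes), in 5 with the deposited scaling (2.96%) and in 6 with cyclic loess (1.86%). Nothing is read from the contrast with these shares, since the same samples chose the genes.

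**Figure D3:**
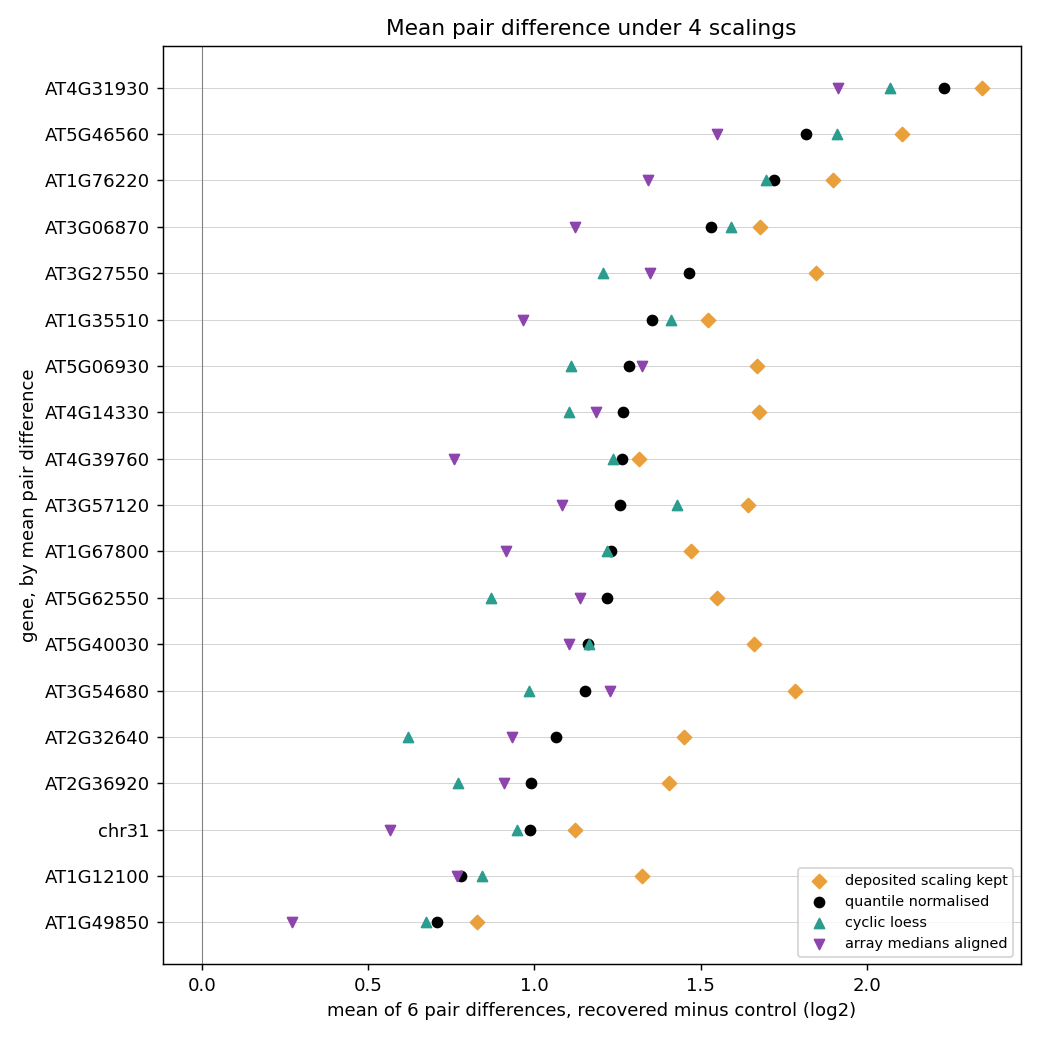
Mean of the 6 pair differences (x axis, log2, recovered minus control) of each of the 19 genes (y axis) under 4 scalings between arrays. Every value lies right of 0; the diamonds of the deposited scaling are the highest in each gene and run from 0.83 to 2.34, and those with array medians aligned run from 0.27 to 1.91.

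**Figure D4:**
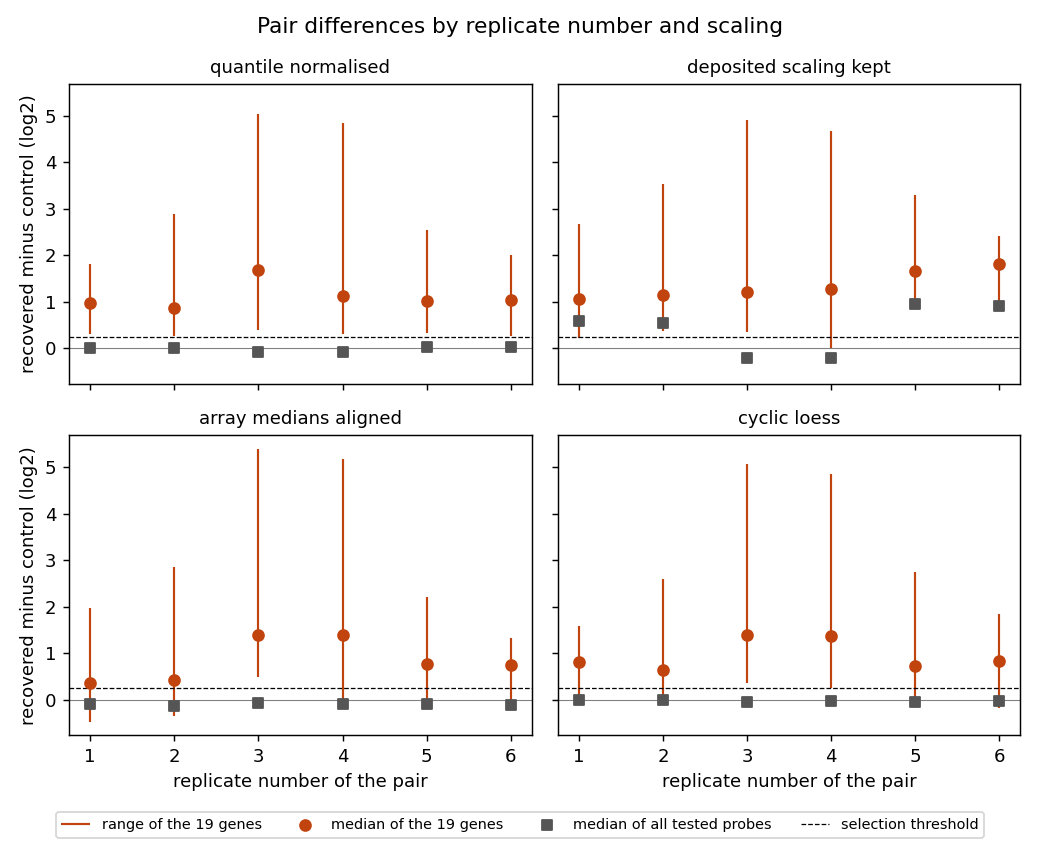
Recovered minus control on the log2 scale (y axis) by replicate number of the pair (x axis) under each scaling; circles are medians and lines the range over the 19 genes, and squares are medians over all 3177 tested probes. In pairs 1, 2, 5 and 6 the squares lie at 0.55 to 0.94 with the deposited scaling and at -0.13 to 0.028 with the others, and with array medians aligned the circles of pairs 1 and 2 are at 0.37 and 0.43 and those of pairs 3 and 4 at 1.38 and 1.39.

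Over all tested probes, limma called 69 probes at a Benjamini-Hochberg adjusted p under 0.05, 28 of them higher after recovery, or 0.881%. Of the 19 genes, 4 were among these 28, a count from which nothing is read, since the same differences chose the genes. When adjacent numbers were first averaged, leaving 3 values a group, limma called 0 probes, with 164 at an unadjusted p under 0.05.

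Few genes of the lists made for this work had a probe of their own. Only the lists of RNA-directed DNA methylation and RGLG ligases held any of the 19 genes, and the pathways of the others were not listed. Of 53 genes in 5 lists (malate valve and malate dehydrogenases, RNA-directed DNA methylation, RGLG ligases, clock, and early light-induced or stress genes), 3 were measured: chr31, AT1G67800 and the NADP-dependent malate dehydrogenase gene set aside above. No clock gene of the 16 listed and none of the 9 early light-induced or stress genes had one. The 19 genes were spread over the genome: in the RefSeq gene order of assembly TAIR10.1 the closest, AT3G57120 and AT3G54680, had 258 protein-coding genes between them.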

How the data were processed

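The deposited table gives linear intensity values for 3439 probes in 12 samples, with no value below 0. The maximum was within 0.001 of 100 in 11 samples and was 90.5 in the other. How the authors corrected and scaled the deposited intensity is not given in the sources used here. All sample columns were used (0 left out). Groups and replicate numbers came from the sample titles. After quantile normalisation over the arrays, a floor of 0.0322, the 5th percentile of the positive deposited values, was applied before log2. Probes with 6 or more of 12 deposited values above it were used, 3177 in all, without the 262 dimmer ones.

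Each recovered sample was set against the control of the same number. The numbers were read as pairs because the selection rule was set that way. Deviations from the group means correlated at 0.111 to 0.487 in the 6 pairs. Samples of unlike number were not compared in this way, so these values cannot show that equal numbers belong together. No label names a shared origin. The members and lists were chosen with earlier results of these data known. Pentatricopeptide repeat genes were recognised by hand, since the tables give no protein families. All 19 genes are named. The values of all samples are printed for the 12 with the largest mean difference, the 3 nearest the threshold and any with a sample standing apart, and other genes by range.

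The count over all probes came from limma 3.58.1 (R 4.3.3), fitted with no pairing and tested two-sided by eBayes, after the procedure had been tested on simulated data. The simulated samples were independent of each other, so the likeness of adjacent numbers was not covered by it. No p-value is given for a member. Gene names came from the platform's annotation, and 19 of 19 members matched the RefSeq table. The number of arrays limits the precision. Alternatives tried were other scalings, floors, filters and thresholds, left-out samples, averaging of adjacent numbers and the replicate number as a block. Promoters and proteins were not analysed here.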

Additional observations from a re-analysis of the deposited data

Results flagged for a closer look

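In AT1G12100, the lipid-transfer protein gene, control 3 stood apart from the other controls at a log2 intensity of -2.48, against -1.96 in the next control, a gap of 0.642 times the full spread of the controls. It was the 1 such case in 38 groups of values. Chance gives about 1.9 (1 in 20) where the values of a group are independent, which adjacent numbers may not be. Without control 3, the mean difference of AT1G12100 was 0.67, the lowest over all left-out samples and numbers, where the highest was 0.83. Without both samples 3 it was 0.70, against 0.78 with all samples.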

How the results depend on the processing

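The number of genes that met the condition, 19, became 71 with the deposited scaling kept (of which 16 were among the 19), 13 with array medians aligned (7 of the 19), 21 with cyclic loess (13 of the 19), 12 where all 12 deposited values had to lie above the floor (12 of the 19), 57 with adjacent numbers averaged, 50 with a threshold of 0, 12 with a threshold of 0.5 (12 of the 19), and 7 where groups without overlap were required. Without 1 replicate number it was 25 to 30, and all 19 genes remained, as they must when a condition is removed. With pairs 3 and 4 alone, or 1, 2, 5 and 6 alone, chosen after seeing the data, 19 of the 19 remained for the same reason. The 69 probes called by limma became 35 with the deposited scaling kept, 121 with the floor at the 20th percentile, 1 with a random block for adjacent numbers, 0 with adjacent numbers averaged (unadjusted p under 0.05 in 164), and 21 to 68 without a single sample. With the replicate number as a block, which uses the pairing, 85 were called. The higher share of calls was 28 of 69, against 29 of 35 with the deposited scaling kept and 15 of 68 with array medians aligned. Of 456 recomputed mean differences of the 19 genes, 0 fell below 0 and 7 moved by more than the SD over the pairs. Those without 1 replicate number or with adjacent numbers averaged could not fall below 0, by the choice of genes. Leaving out pairs with a floor value, in the 7 genes that had one, gave 0.60 to 1.26, each within the SD over all 6 pairs of its value. That SD is itself widened by floor pairs, so little is read from this. For AT4G31930 the SD was 2.12 with them and 0.34 without, while the mean went from 2.23 to 0.88. AT5G06930 was at 0.32 with the floor at the 20th percentile and at 2.74 with the floor at the 1st, so its size is set by the floor. The distance of a deposited value from the array background is not known.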
